A study of Mus musculus with 16 samples.

Results

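The genes described here encode the milk proteins other than caseins and the proteins of the milk fat globule, measured in the mammary glands of female mice that lived alone or in groups. They were chosen by name, from their known role in milk, as the probe sets (groups of short oligonucleotides that report on a transcript) that the array's gene table assigns to a single one of 8 symbols: Wap, Lalba, Btn1a1, Xdh, Ltf, Mfge8, Plin2 and Lcn2. All 8 were measured, out of 18193 genes in all, and each was read from its probe set with the highest mean. The animals were FVB/N females homozygous for SV40 large Tag, a viral oncogene, driven by the C3(1) fragment of a rat prostatic steroid binding protein promoter, a tumour-forming transgene that every group carried. They were weaned at 21 days and then kept isolated, with 1 mouse in a cage, or grouped, and the thoracic gland was taken at 15 or 20 weeks of age. By the labels' protocols all mice were killed in estrus, 6 hours after lights went off. Of the 16 arrays, 4 belonged to each of the 4 groups: grouped at 15 weeks, isolated at 15 weeks, grouped at 20 weeks and isolated at 20 weeks.

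Milk is made by the luminal alveolar cells of the gland, which secrete whey proteins and caseins by exocytosis and release lipid droplets wrapped in their own surface membrane. Wap (whey acidic protein) and Lalba (alpha-lactalbumin, which turns a galactosyltransferase into lactose synthase) are whey proteins made in quantity during pregnancy and lactation under prolactin and its signal transducer Stat5. Ltf (lactoferrin) and Lcn2 (lipocalin 2) are iron-binding and siderophore-binding defence proteins of milk that neutrophils and inflamed epithelium also make. Btn1a1 (butyrophilin), Xdh (xanthine dehydrogenase) and Plin2 (adipophilin, a lipid droplet coat protein) act together in the release of the fat globule, and Mfge8 (lactadherin) is a protein of its outer membrane. The mice of this study were in estrus, and no label records a pregnancy or lactation.

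The values are log2 expression levels with an array median between 8.09 and 8.11 at 15 weeks and between 8.31 and 8.34 at 20 weeks. The ages therefore sit on different scales, so age differences below were taken relative to each array's median, and age cannot be told apart from any separate processing of the arrays of each age. Markers of the labelled tissue were present: the mean of 11 luminal epithelial markers lay between 11.17 and 12.25 over the arrays and that of 7 basal markers between 10.04 and 10.94. The mean of 8 white adipocyte markers lay between 10.74 and 12.93, and that of 9 skeletal muscle markers between 12.58 and 13.95. The whole gland was used, so fewer cells of a type and less RNA per cell cannot be told apart. Arrays are numbered in the labels without a statement that they stand for different animals, and p-values then reflect only the array-to-array spread, which may be technical.

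**Figure D1:**
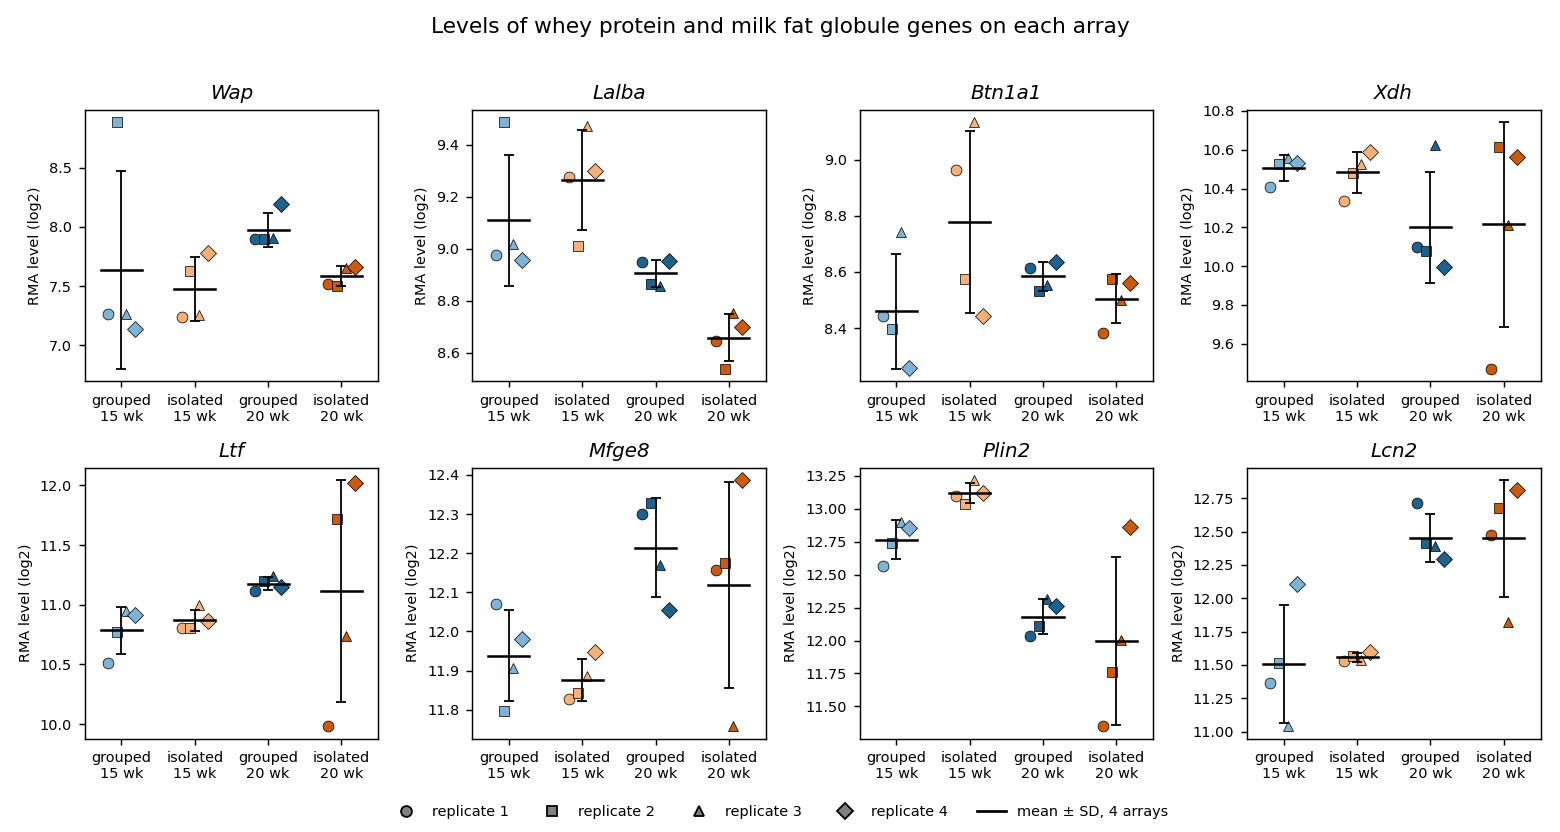
Level of each gene (log2, vertical axis) on each of the 16 arrays, by group; a symbol is 1 array, and bars are the mean ± SD of 4 arrays. For Wap and Lalba the 4 isolated arrays lie below the 4 grouped arrays at 20 weeks, for Plin2 the 4 isolated arrays lie above the grouped arrays at 15 weeks, and the isolated arrays at 20 weeks are widely spread for Ltf, Xdh and Plin2.

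The whey protein genes Wap and Lalba were lower on every isolated array than on every grouped array at 20 weeks, but neither difference passed the threshold of 0.05 on the adjusted p. Wap lay at 7.90, 7.90, 7.91 and 8.19 in grouped mice and at 7.52, 7.50, 7.65 and 7.67 in isolated mice. The grouped arrays were close together except replicate 4, and no isolated array reached the lowest grouped one. Wap lay below the median of each of these arrays, at percentiles 33.6 to 47.2 of all probe sets. Deposited values carry no detection call, so Wap is not shown to be above background there. The group means were 7.97 ± 0.14 (SD, n = 4) and 7.59 ± 0.09, a 1.31-fold lower level in isolated mice (log2 difference -0.39, SE 0.08, 95% interval -0.57 to -0.21; limma adjusted p = 0.422; exact permutation p = 0.0286, the smallest that 4 against 4 arrays can give). Lalba lay at 8.95, 8.87, 8.86 and 8.95 in grouped mice and at 8.65, 8.54, 8.75 and 8.70 in isolated mice. Its groups were likewise separate, and the difference was 1.19-fold (-0.25, SE 0.06, 95% interval -0.39 to -0.11; limma adjusted p = 0.455; exact permutation p = 0.0286). Of all genes, 2.0% were lower without overlap in isolated mice at 20 weeks, against 2 of these 8. Among the 18193 genes Wap ranked 35 and Lalba 117 by unadjusted p in that comparison.

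The luminal marker mean lay between 11.97 and 12.25 in grouped and between 11.86 and 12.15 in isolated arrays at 20 weeks, with 10 of its 11 genes negative and 0 past the threshold. With that mean as a covariate the differences were -0.40 for Wap and -0.25 for Lalba (limma adjusted p = 0.941 for both). Other cell types differed more between the housing groups at that age, with 0 genes past the threshold in each list: 8 of 8 adipocyte markers were negative (median -0.75), 9 of 9 skeletal muscle markers were negative (-0.47) and 10 of 10 macrophage markers were positive (0.59). With the adipocyte mean as a covariate Wap differed by -0.35 and Lalba by -0.23 (adjusted p = 0.988 for both). That mean lay between 11.85 and 12.19 in grouped arrays, and isolated replicates 1 to 3 lay below all of these. It nearly separates the housing groups at 20 weeks, the fit can hardly tell it from housing, and nothing is drawn from fits with it. The part of luminal cells, adipocytes, muscle and macrophages in the differences of Wap and Lalba was not tested. The caseins differed more in the same glands: Csn2 by -4.26 (SE 0.33, limma adjusted p = 0.00671) and Csn1s1 by -0.94 (SE 0.09, adjusted p = 0.0163), while Csn1s2a (-2.85, adjusted p = 0.11) was separate without passing, and Csn3 (-0.18) and Csn1s2b (0.04) had overlapping groups. In isolated mice at 20 weeks Csn1s2a lay below the lower quartile of all probe sets on 4 arrays and Csn2 on replicates 1 and 3. Those levels are not shown to be above background, so the sizes of the Csn2 and Csn1s2a differences are uncertain. The call of Csn1s1 was lost when any of grouped replicates 2, 3 and 4 and isolated replicates 2 and 3 was left out (limma adjusted p up to 0.137) and with the luminal covariate (0.141). Its difference stayed between -0.98 and -0.87 with 1 array left out and was -0.98 with that covariate. The call of Csn2 was lost without grouped replicate 2 (0.0633) or 4 (0.0732) and with the luminal (0.0546) or adipocyte covariate (0.172), at differences of -4.16, -4.19, -3.87 and -3.59. Csn1s2a was called without grouped replicate 1 (0.0137) or isolated replicate 4 (0.0263).

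Windows from 250 bases before to 50 after a listed start were found in the RefSeq promoter table (build GRCm38.p6). They were found for 6 of the 8 genes, all but Btn1a1 and Xdh, and for 3 caseins. The listed start is not always the outer end of the gene. The annotated Lalba gene runs from 98480400 to 98482934, so its window lies wholly inside the gene. For Plin2, and by a few bases for Wap, the listed start also lay inside the annotated gene. They were searched on both strands for TTCNNNGAA, the palindromic letters of a Stat5 type site, which 8.3% of all 32851 windows hold. The letters were present in 0 of 6 windows of the whey and fat globule genes and in 3 of 3 casein windows. A pattern of the NF-kappaB type, held by 20.7% of all windows, was found in 0 of 6 and 0 of 3. The windows of Wap and Lalba, the members lower without overlap at 20 weeks, are shown beside those of Csn2 and Csn1s1 to let the match be seen. Capitals mark TTCNNNGAA, all else is lower case, and a window without capitals has no match.
Wap, chr11:6638600-6638899, minus strand: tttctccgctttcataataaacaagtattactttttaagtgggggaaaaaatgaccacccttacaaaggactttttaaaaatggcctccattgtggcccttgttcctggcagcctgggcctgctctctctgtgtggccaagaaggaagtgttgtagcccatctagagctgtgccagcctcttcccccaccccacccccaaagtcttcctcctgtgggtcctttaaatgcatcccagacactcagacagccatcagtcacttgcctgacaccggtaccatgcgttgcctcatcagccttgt
Lalba, chr15:98482634-98482933, minus strand: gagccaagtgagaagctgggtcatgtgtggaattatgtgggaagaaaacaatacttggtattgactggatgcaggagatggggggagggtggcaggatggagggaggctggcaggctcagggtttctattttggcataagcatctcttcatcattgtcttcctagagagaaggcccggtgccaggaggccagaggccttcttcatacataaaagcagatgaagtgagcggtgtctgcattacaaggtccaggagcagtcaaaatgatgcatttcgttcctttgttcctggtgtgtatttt
Csn2, chr5:87699376-87699675, minus strand: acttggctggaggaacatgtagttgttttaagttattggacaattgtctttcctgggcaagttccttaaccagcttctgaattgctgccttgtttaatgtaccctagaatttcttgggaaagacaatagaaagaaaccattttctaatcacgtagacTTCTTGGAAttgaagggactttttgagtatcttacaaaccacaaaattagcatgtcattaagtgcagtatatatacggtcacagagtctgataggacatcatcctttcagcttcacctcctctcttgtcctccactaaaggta
Csn1s1, chr5:87665958-87666257, plus strand: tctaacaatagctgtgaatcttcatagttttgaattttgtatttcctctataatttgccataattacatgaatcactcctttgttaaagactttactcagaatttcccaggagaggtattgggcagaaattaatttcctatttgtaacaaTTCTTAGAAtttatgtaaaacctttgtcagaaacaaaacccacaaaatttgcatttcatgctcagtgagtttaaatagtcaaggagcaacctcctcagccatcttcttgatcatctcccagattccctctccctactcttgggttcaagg
The match lay 93 bases before the listed start in Csn2, 100 bases before it in Csn1s1 and, in Csn1s2a, 20 bases after it. A match is a description of letters and not of binding, and its absence says only that these letters are not in this window.

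At 15 weeks the whey protein genes overlapped between housing groups, and 1 array stood apart. Wap lay at 7.26, 8.88, 7.27 and 7.14 in grouped mice and at 7.24, 7.63, 7.26 and 7.78 in isolated mice. Grouped replicate 2 was far above the other grouped arrays. Lalba lay at 8.98, 9.49, 9.02 and 8.96 in grouped mice and at 9.28, 9.01, 9.47 and 9.30 in isolated mice, and again grouped replicate 2 was the high array of its group. The same array had the highest Csn2 (12.93, against 11.57, 11.46 and 11.81), Csn1s1 (12.53, against 11.41, 11.64 and 11.16) and Csn1s2a (12.47, against 10.83, 9.97 and 10.90) of its group. Its luminal marker mean, 11.45, lay within the range of the other grouped arrays, 11.17 to 11.77. The housing difference of Wap was -0.16 (SE 0.33, limma adjusted p = 0.879), and 0.25 without that array. That of Lalba was 0.15 (SE 0.13, adjusted p = 0.678), and 0.28 without it. Wap turned to 0.63 once a sign of RNA quality was a covariate, namely the 3' probe set of the Gapdh control less its 5' one. This quantity was -0.06 ± 0.02 (SD) in grouped and -0.01 ± 0.02 in isolated arrays. It ran from -0.09 to -0.034 in grouped and from -0.034 to 0.016 in isolated arrays, so it nearly separates the groups. The fit can hardly tell it from housing, the value of 0.63 was not called, and nothing is drawn from it.

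The housing difference at 20 weeks minus that at 15 weeks was tested on all 16 arrays, and no member passed. It was -0.23 for Wap (SE 0.39, limma adjusted p = 0.86) and -0.40 for Lalba (SE 0.15, adjusted p = 0.306). Lalba was lower at 20 than at 15 weeks, relative to the array median, in both kinds of housing. The mean fell by 0.44 in grouped mice (SE 0.11, limma adjusted p = 0.015) and by 0.83 in isolated mice (SE 0.09, adjusted p = 0.000149), and each time every array at 20 weeks lay below every array at 15 weeks, as for 19.2% of all genes in grouped and 22.1% in isolated mice. On the deposited values, without the array median taken off, Lalba differed by -0.20 in grouped mice (adjusted p = 0.135) and was not called. Wap differed by 0.10 with age in grouped mice (SE 0.34, 95% interval -0.65 to 0.86) and by -0.11 in isolated mice (SE 0.12, adjusted p = 0.437). Without grouped replicate 2 at 15 weeks the rise of Wap in grouped mice was 0.52 (limma adjusted p = 0.00519), so 1 array decides that call. Relative to the array median, the levels of Lalba were in the order isolated at 15, grouped at 15, grouped at 20 and isolated at 20 weeks (1.17, 1.02, 0.58 and 0.34), of which the first and second overlapped. The order of Wap ran from grouped at 20 weeks to isolated at 20 weeks, and each neighbouring pair overlapped. The arrays behind the age and the housing comparisons are partly the same.

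Ltf and Lcn2, the iron-binding and siderophore-binding proteins, had no housing difference past the threshold at either age. Ltf lay at 10.52, 10.77, 10.95 and 10.92 in grouped and 10.81, 10.81, 11.00 and 10.86 in isolated mice at 15 weeks. At 20 weeks it lay at 11.12, 11.20, 11.24 and 11.15 in grouped mice, and at 9.98, 11.72, 10.74 and 12.02 in isolated mice. The grouped arrays of 20 weeks were within a narrow band, and the isolated arrays fell on both sides of it, with an SD of 0.931 against 0.0556. The log2 differences were 0.08 at 15 weeks (SE 0.10, limma adjusted p = 0.776) and -0.06 at 20 weeks (SE 0.38, 95% interval -0.92 to 0.79, adjusted p = 0.969). The interval at 20 weeks is too wide to tell a rise from a fall.

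Lcn2 lay at 11.37, 11.51, 11.04 and 12.11 in grouped and 11.53, 11.56, 11.54 and 11.60 in isolated mice at 15 weeks. At 20 weeks it lay at 12.71, 12.42, 12.39 and 12.29 in grouped and 12.48, 12.68, 11.82 and 12.81 in isolated mice. At 15 weeks the isolated arrays were the tight group (SD 0.0312 against 0.445), and at 20 weeks the wider one (0.439 against 0.18). Housing differences were 0.05 (SE 0.18, limma adjusted p = 0.933) and -0.00 (SE 0.20, adjusted p = 0.997). Lcn2 was the only one of the 8 genes called higher at 20 weeks, by 0.71 in grouped mice (SE 0.19, 1.64-fold, limma adjusted p = 0.0173) and 0.67 in isolated mice (SE 0.19, 1.59-fold, adjusted p = 0.0141) relative to the array median. On the values as deposited all 4 arrays at 20 weeks lay above every array at 15 weeks of the same housing. A rise is common on that scale, where 10196 of 18193 genes were called higher in grouped and 10422 in isolated mice. The share of all genes separated in this way was not counted. Relative to the array median 3 of 4 arrays lay above every array at 15 weeks. Ltf differed by 0.16 (adjusted p = 0.221) and 0.02 (adjusted p = 0.963), and its deposited values gave 0.39 (adjusted p = 0.00635) in grouped mice.

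Neutrophils carry both proteins, so 8 neutrophil markers were read on the same arrays. Their mean lay between 8.19 and 9.23 in grouped and 8.21 and 8.30 in isolated arrays at 15 weeks, and between 8.70 and 8.76 and between 8.67 and 9.23 at 20 weeks. Deposited values carry no detection call, so none of these markers can be said to be absent; S100a9 had a median percentile of 41.0 among all probe sets, Mpo of 50.1 and Camp of 58.9. Grouped replicate 1 had the highest neutrophil mean at 15 weeks (9.23), with Ltf at 10.52, the lowest of that age, and Lcn2 at 11.37, inside the range of its group. Isolated replicate 3 had the highest at 20 weeks (9.23), with Ltf at 10.74, inside the range of its group, and Lcn2 at 11.82, the lowest of that age. With age 17.8% of all genes were called higher and 19.4% lower in grouped mice, and 26.5% and 23.8% in isolated mice. Beside these shares, 1 neutrophil marker was called higher (Mpo, 0.27) and 1 lower (Elane, -0.66) in grouped mice. In isolated mice 4 were called higher and 1 lower: the calprotectin genes S100a8 (2.10, SE 0.38, limma adjusted p = 0.00164) and S100a9 (1.31, SE 0.36, adjusted p = 0.0139), the receptor gene Csf3r (0.37) and Mpo (0.19) rose, and Elane fell by 0.58. Of 9 acute phase genes, 3 were called higher and 1 lower at 20 weeks in grouped mice and 6 higher and 1 lower in isolated mice, among them Socs3, a feedback inhibitor of cytokine signalling, at 1.24 and 1.44. Of the 11 luminal markers 6 were called higher at 20 weeks in each housing, with 0 lower in grouped mice and 1 lower in isolated mice. The part of these cells in the rise of Lcn2 was not tested.

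**Figure D2:**
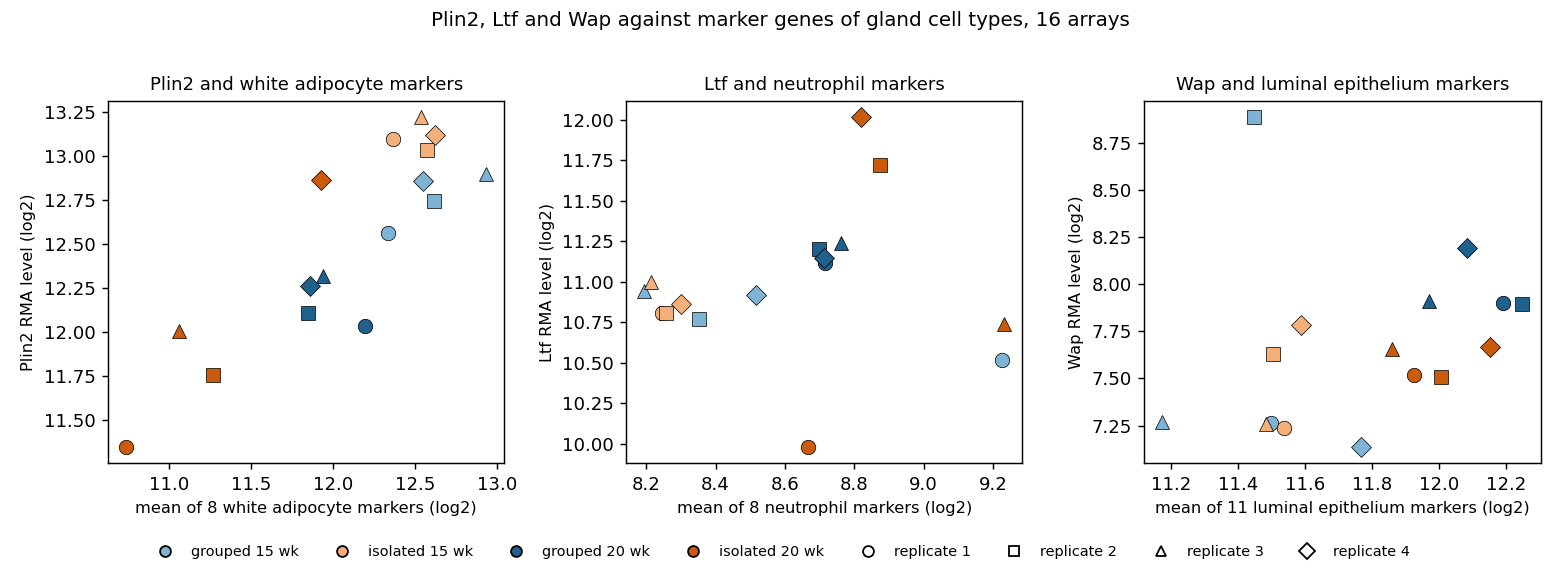
Plin2, Ltf and Wap (log2, vertical axes) against the mean of marker genes of white adipocytes, neutrophils and luminal epithelium (log2, horizontal axes), 1 symbol per array. The isolated array at 20 weeks with the lowest adipocyte mean has the lowest Plin2. The 2 arrays with the highest neutrophil mean have Ltf at 10.52 and 10.74. At 20 weeks the isolated arrays lie below the grouped ones for Wap, and their luminal marker means overlap. The part of these cell types was not tested.

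Plin2, which coats lipid droplets in adipocytes and other cells as well as in the milk-secreting epithelium, had the largest age differences of the 8 genes. It lay at 12.56, 12.74, 12.90 and 12.85 in grouped and 13.09, 13.03, 13.22 and 13.12 in isolated mice at 15 weeks, and every isolated array was above every grouped one. The difference of 0.35 (SE 0.09, 1.28-fold, 95% interval 0.16 to 0.54) did not pass over all genes (limma adjusted p = 0.284; exact permutation p = 0.0286), and 2.31% of all genes were higher without overlap in that comparison. The adipocyte marker mean overlapped between the groups at that age (12.33 to 12.93 in grouped, 12.36 to 12.62 in isolated arrays), and with it as a covariate Plin2 differed by 0.39 (adjusted p = 0.0869).

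At 20 weeks Plin2 lay at 12.03, 12.11, 12.32 and 12.26 in grouped and 11.35, 11.76, 12.00 and 12.86 in isolated mice. Isolated replicates 1 to 3 were below every grouped array and replicate 4 above every one. The difference of -0.19 (SE 0.27, 95% interval -0.79 to 0.42; limma adjusted p = 0.845) was -0.47 without isolated replicate 4 and 0.03 without replicate 1. The adipocyte marker mean was lowest in isolated replicate 1 (10.74) and highest, among isolated arrays, in replicate 4 (11.93), with grouped arrays between 11.85 and 12.19. With that mean as a covariate the difference was 0.56 for Plin2 and 1.01 for Ltf (adjusted p = 0.988 for both), so both turned in direction without a call. Since isolated replicates 1 to 3 lay below every grouped array in that mean, the fit can hardly tell it from housing. Nothing is drawn from these values.

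Between 15 and 20 weeks Plin2 fell by 0.82 in grouped mice (SE 0.10, 1.76-fold, limma adjusted p = 0.000476) and by 1.35 in isolated mice (SE 0.26, 2.54-fold, adjusted p = 0.00227) relative to the array median. On that scale every array at 20 weeks lay below every array at 15 weeks of the same housing. So did 19.2% of all genes in grouped and 22.1% in isolated mice. The deposited values gave falls of Plin2 of 0.585 and 1.12 that were called too. The 8 white adipocyte markers were all called lower in both kinds of housing, with medians of -0.84 and -1.60. Of all genes, 19.4% were called lower in grouped and 23.8% in isolated mice. The part of adipocytes in the fall of Plin2 was not tested. The housing difference of Plin2 changed by -0.54 between ages (SE 0.30, limma adjusted p = 0.465), and by -0.83 without isolated replicate 4 at 20 weeks (adjusted p = 0.0422). The order of its levels was isolated at 15, grouped at 15, grouped at 20 and isolated at 20 weeks, in which only the last pair overlapped.

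Btn1a1, the membrane protein that binds the droplet to the cell surface, lay at 8.44, 8.40, 8.74 and 8.26 in grouped and 8.97, 8.57, 9.13 and 8.44 in isolated mice at 15 weeks. Isolated replicates 1 and 3 were the high arrays and the groups overlapped (difference 0.32, SE 0.15, limma adjusted p = 0.53). With that Gapdh quantity, which nearly separates the housing groups at 15 weeks, as a covariate the difference was -0.01, and nothing is drawn from it. At 20 weeks it lay at 8.62, 8.53, 8.55 and 8.64 and at 8.38, 8.58, 8.50 and 8.56, and the groups again overlapped (-0.08, SE 0.06, adjusted p = 0.707). Btn1a1 was called lower at 20 than at 15 weeks in isolated mice, by 0.50 in log2 (difference -0.50, SE 0.14, limma adjusted p = 0.0161), and not in grouped mice (-0.11, SE 0.10, adjusted p = 0.405). The change of the housing difference between ages, which is the test of that contrast, was -0.40 (SE 0.18, adjusted p = 0.372). On the deposited values the difference in isolated mice was -0.27 (adjusted p = 0.109). Btn1a1 has 2 further, dimmer probe sets, with means of 4.75 and 5.67, which were looked at after the data were seen. Both lay below the lower quartile of every array (6.76 to 7.035), so neither is shown to be above background. Their deposited values in isolated mice, 4.56 to 4.94 and 5.65 to 5.76 at 15 weeks and 4.75 to 4.85 and 5.57 to 5.71 at 20 weeks, overlapped between ages. Relative to the array median both were called lower with age in isolated mice (-0.19, limma adjusted p = 0.0424, and -0.28, adjusted p = 0.00121). The brighter of the 2 was also called lower in grouped mice (-0.22, adjusted p = 0.0134). Since neither is shown to be above background, they give no second reading of the gene.

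Xdh, whose product works at the membrane with butyrophilin and also degrades purines in other cells, lay at 10.41, 10.52, 10.56 and 10.53 in grouped and 10.34, 10.48, 10.52 and 10.59 in isolated mice at 15 weeks. At 20 weeks it lay at 10.10, 10.08, 10.63 and 9.996 in grouped and 9.47, 10.61, 10.21 and 10.56 in isolated mice. The groups overlapped at both ages, and grouped replicate 3 and isolated replicate 1 stood away from their groups at 20 weeks. Housing differences were -0.02 (SE 0.07, limma adjusted p = 0.926) and 0.02 (SE 0.25, adjusted p = 0.989). With age Xdh fell by 0.54 in grouped mice (SE 0.13, limma adjusted p = 0.0102) and differed by -0.49 in isolated mice (SE 0.22, adjusted p = 0.0828). The deposited values gave -0.30 in grouped mice (adjusted p = 0.0593), a call that was lost, and quantile normalization (-0.56, adjusted p = 0.0471), cyclic loess (-0.61, 0.0434), the replicate number as a block (0.0313) and leaving out isolated replicate 2 (0.0463) or 4 (0.0435) at 20 weeks each brought one in isolated mice.

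Mfge8, which binds phosphatidylserine on the globule and on dying cells, passed in no comparison on these scales. Its means were 11.94 ± 0.12 (SD, n = 4), 11.88 ± 0.05, 12.21 ± 0.13 and 12.12 ± 0.26 in grouped and isolated mice at 15 weeks and grouped and isolated mice at 20 weeks. The 4 groups spanned 11.76 to 12.39, and the lowest and the highest of all arrays were isolated replicates 3 and 4 at 20 weeks. Housing differences were -0.06 (SE 0.07, 95% interval -0.23 to 0.10, limma adjusted p = 0.777) and -0.09 (SE 0.13, 95% interval -0.38 to 0.19, adjusted p = 0.835). Differences with age were 0.04 and 0.02 relative to the array median, and 0.28 (adjusted p = 0.0216) and 0.24 on the deposited values.

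**Figure D3:**
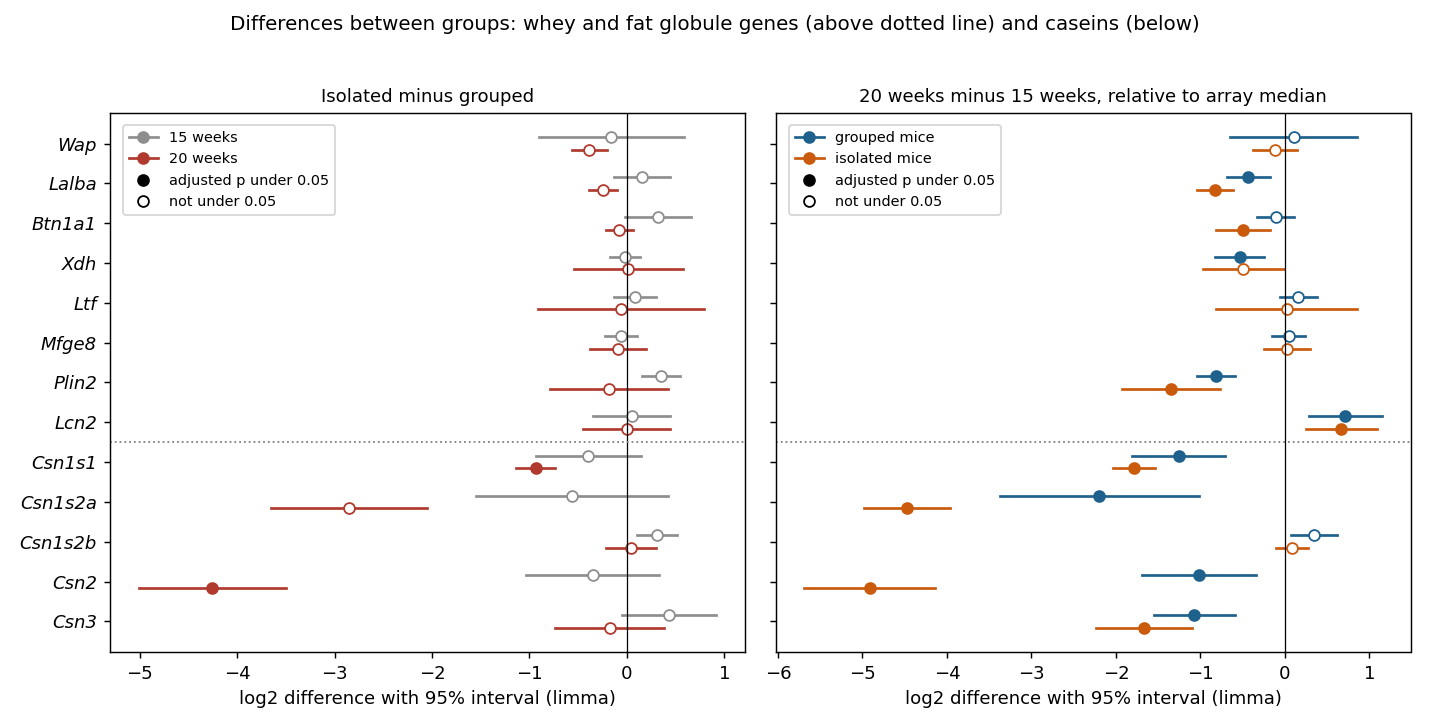
Log2 differences with their 95% intervals from limma for the 8 genes and, below the dotted line, the 5 caseins; left, isolated minus grouped at each age; right, 20 minus 15 weeks relative to the array median in each housing. Filled circles have an adjusted p under 0.05: none of the 8 genes for housing, and Lalba, Plin2 and Lcn2 in both kinds of housing, Xdh in grouped and Btn1a1 in isolated mice for age.

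Counted over the set, 0 of 8 genes passed for housing at 15 weeks, where 0.044% of all genes did, and 0 of 8 at 20 weeks, where 0.011% did (limma, adjusted p under 0.05). At an unadjusted p under 0.05 there were 1 (Plin2) and 2 (Wap and Lalba) of 8, beside 9.7% and 8.49% of all genes. The median difference of the set was 0.07 at 15 weeks and -0.09 at 20 weeks, beside -0.01 for all genes at both ages, and 3 and 7 of the 8 were negative, beside 54.0% and 53.3% of all genes. For the change of the housing difference between ages 0 of 8 passed (0.011% of all genes did), with 2 (Lalba and Btn1a1) at an unadjusted p under 0.05, beside 12.7% of all genes. With age 1 gene was called higher and 3 lower in grouped mice, where 17.8% and 19.4% of all genes were, and 1 higher and 3 lower in isolated mice, where 26.5% and 23.8% were. Lalba, Plin2 and Xdh were the genes called lower in grouped mice, and Lalba, Plin2 and Btn1a1 in isolated mice. The balance depends on the scale. On the deposited values Ltf, Mfge8 and Lcn2 were called higher and Plin2 lower in grouped mice, where 10196 genes were called higher and 1166 lower, against 3242 and 3535 relative to the array median. In isolated mice Lcn2 was then called higher and Lalba and Plin2 lower, with 10422 genes higher and 1697 lower, against 4817 and 4323. Plin2 and Lcn2 were called in the same direction in both kinds of housing on both scales.

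Other genes of milk formation were read from fixed lists. Of 11 further genes of milk fat secretion, 0 passed for housing at either age; at 20 weeks 9 were negative with a median of -0.39, with the lipoprotein lipase gene Lpl at -0.80 (SE 0.24, limma adjusted p = 0.525) and the triglyceride synthase gene Dgat1 at -0.54 (adjusted p = 0.567). With age 6 fell and 1 rose in grouped mice and 7 fell and 2 rose in isolated mice. Of all genes, 19.4% were called lower and 17.8% higher in grouped mice, and 23.8% and 26.5% in isolated mice. The fatty acid transporter Cd36, also a gene of adipocytes and vessels, fell by 1.13 and 1.68, and Cidea, which enlarges lipid droplets, by 1.22 and 2.12. Muc1, a mucin of the apical membrane and the globule, rose by 0.72 and 0.62.

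Of 7 genes of lactose synthesis and ion transport 0 passed for housing. With age 3 were called higher and 1 lower in grouped mice, where 17.8% and 19.4% of all genes were. In isolated mice 3 were called higher and 3 lower, where 26.5% and 23.8% of all genes were. The galactosyltransferase gene B4galt1, the partner of alpha-lactalbumin in lactose synthase, rose with age by 0.25 in grouped (limma adjusted p = 0.0103) and 0.36 in isolated mice (adjusted p = 0.000746), while Lalba fell. The glucose transporter gene Slc2a1 rose by 0.71 and 0.70, and Slc35a2, which carries UDP-galactose into the Golgi, fell by 0.64 and 0.69. Atp2b2 rose by 0.29 and 0.22, and Ugp2 (-0.31) and Slc34a2 (-0.22) were called lower in isolated mice only. Of 12 measured prolactin pathway and alveolar regulators 0 passed for housing. The Stat5 feedback genes nearest the threshold were Socs2 at 15 weeks (-0.49, SE 0.08, limma adjusted p = 0.0787) and Cish at 20 weeks (-0.39, SE 0.12, adjusted p = 0.524), and Socs2 differed by 0.24 at 20 weeks. With age 4 of the 12 fell and 0 rose in grouped mice: Stat5a by 0.50 (limma adjusted p = 0.0108), Socs2 by 0.64, the secretory regulator Xbp1 by 0.39 and the receptor gene Erbb4 by 0.16. Of all genes, 19.4% were called lower and 17.8% higher in grouped mice, and 23.8% and 26.5% in isolated mice. In isolated mice 2 of the 12 fell and 3 rose. Stat5a fell by 0.56 (adjusted p = 0.00154) and Elf5, a transcription factor of alveolar cells, by 0.61 (adjusted p = 0.0168), while Id2, needed for alveolar growth, rose by 0.66, the kinase gene Akt1 by 0.36 and Tnfsf11, the gene of RANKL, by 0.27. Of 5 other milk proteins 0 passed for housing or with age in grouped mice, and the lactoperoxidase gene Lpo (0.20) and the folate receptor gene Folr1 (0.19) rose with age in isolated mice.

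Among the 8 genes, and between each of them and Csn2, deviations from the group mean were compared over the 8 arrays of each age, 72 relations in all. The permutation p here took every order of the 8 deviations, across both housing groups. Group means had been removed and spreads can differ between the groups. The orders are then not equally likely, so these p-values and their adjusted values are approximate. Ltf and Plin2 went together at 15 weeks (Pearson r = 0.99, exact permutation p = 0.000174, adjusted p = 0.0125; Spearman rho = 0.93, exact permutation p = 0.00223, adjusted p = 0.161). Without the 2 arrays farthest from the median of Ltf r was 0.96. At 20 weeks r for that pair was 0.76 (exact permutation p = 0.0459, adjusted p = 0.472; rho = 0.52, exact permutation p = 0.197), and -0.56 without the 2 farthest arrays. Mfge8 and Lcn2 went together at 20 weeks (r = 0.93, exact permutation p = 0.00114, adjusted p = 0.041; rho = 0.86, exact permutation p = 0.0107, adjusted p = 0.257; r = 0.66 without the 2 farthest arrays). Wap and Csn2 had, at 15 weeks, a correlation that did not pass (r = 0.93, exact permutation p = 0.00449, adjusted p = 0.0808; rho = 0.64, exact permutation p = 0.0962), a relation in which grouped replicate 2 is the high array of both genes, with r = 0.69 without the 2 farthest arrays. At 20 weeks the same pair had r = 0.16 (exact permutation p = 0.714, adjusted p = 0.848; rho = -0.10, exact permutation p = 0.84), and -0.58 without the 2 farthest arrays. Ltf and Csn2 had r = 0.85 at 20 weeks (exact permutation p = 0.00313, adjusted p = 0.0751; rho = 0.90, exact permutation p = 0.00456; r = 0.82 without the 2 farthest arrays) and -0.14 at 15 weeks (exact permutation p = 0.714; rho = -0.33, exact permutation p = 0.428). On isolated replicates 1 and 3 at 20 weeks Csn2 lay below the lower quartile of all probe sets and is not shown to be above background. Wap and Lalba had r = 0.67 at 15 and 0.63 at 20 weeks (exact permutation p = 0.0704 and 0.0992; rho = 0.60 and 0.67, exact permutation p = 0.132 and 0.0831). The first became -0.18 without the 2 farthest arrays.

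The genes most like each member over the 16 arrays, by Pearson correlation of deviations from the mean of the age, were read out of 18192 other genes as a description, with housing, gland makeup and array shared by all. Wap was nearest to the granzyme gene Gzmk (r = 0.81), the casein gene Csn1s1 (0.79) and the kisspeptin receptor gene Kiss1r (0.78). By rank these were lower (Spearman rho = 0.71, 0.63 and 0.44), and grouped replicate 2 at 15 weeks is the highest array of Wap and Csn1s1. Btn1a1 was nearest to Pcgf2 (0.88), Kdm4d (0.87) and Cited1 (0.86), a transcriptional coregulator. Plin2 was nearest to Rmdn3 (0.95), the lactate transporter gene Slc16a1 (0.95) and the glycolytic enzyme gene Pfkl (0.94), and Ltf to Mfsd9 (0.92), Clca3a2 (0.90) and Nek7 (0.90). For Xdh they were Tgfbrap1, Stard9 and Wdfy1 (each 0.91), and for Mfge8 Garre1 (0.90), the endothelin-converting enzyme gene Ece1 (0.87) and Etv6 (0.87). For Lcn2 they were the collagen gene Col16a1 (0.87), 1700066C05Rik (0.85) and Nck2 (0.83, with rho = 0.54). For Lalba they were Gm33248 (0.84), Anks1b (0.82) and the carbonic anhydrase gene Car1 (0.81).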

How the data were processed

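Total RNA of the gland was hybridised to 16 one-colour Affymetrix arrays. Per the submitters' processing notes the authors used RMA from the affy package, so the deposited values are log2 levels; the version of affy and any filters are not given in the sources used here. Of 45101 probe sets, 34958 had 1 gene symbol, 932 several and 9211 none in the platform's gene table. The probe set of highest mean was kept for each of 18193 genes. Arrays carry no read depth, and their number limits the precision.

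Groups were compared with limma 3.58.1 in R 4.3.3 (lmFit, eBayes with trend), and p-values were adjusted over all genes by Benjamini-Hochberg. Each comparison of 2 groups used its own 8 arrays, and the change of the housing difference with age used all 16. For age each array's median was subtracted. Exact permutation tests and correlations ran in Python 3.11.15. The fits were tested on simulated data. Members and lists were chosen with earlier results of these data known. Named were the 8 members, the caseins, and the 3 genes most like each member. The rule for other lists took genes that passed, or else the 2 of smallest p; the text names some of these and counts the rest. Replicate numbers did not pair arrays throughout: same-numbered arrays correlated from -0.10 to 0.36 (housing, 15 weeks), -0.16 to 0.49 (housing, 20 weeks), -0.18 to 0.23 (age, grouped) and -0.20 to 0.38 (age, isolated), where pairing asked for over 0.1 in every pair. Alternatives were other normalizations, a filter, another probe set, other priors, a threshold of 0.1, covariates, the replicate block and leaving out each array. Protein sequences were not used here.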

Additional observations from a re-analysis of the deposited data

Results flagged for a closer look

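In 32 groups of 4 arrays (8 genes in 4 groups), 4 held an array far from the other 3, by a gap, as a share of the group's range, above Dixon's 95% critical value. About 1 group in 20 is marked so by chance. Wap in grouped mice at 15 weeks was 8.88 in replicate 2, with a gap of 0.926 of the range, and Lalba was 9.49 in that same array (0.887). Wap in grouped mice at 20 weeks was 8.19 in replicate 4 (0.951), and without it the housing difference at 20 weeks was -0.32. Xdh in grouped mice at 20 weeks was 10.63 in replicate 3 (0.840), the array with the highest macrophage marker mean of its group, 11.87 against 10.45 to 10.95. In isolated mice at 20 weeks replicate 3 had the highest macrophage mean (11.92), with Xdh at 10.21, below replicates 2 (10.61) and 4 (10.56). The part of macrophages in the level of Xdh was not tested. No member's housing difference was shown to change between the ages.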

How the results depend on the processing

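For housing, 0 of 8 genes passed under every alternative run at either age. For age 4 of 8 passed in each housing, 4 to 5 over the alternatives in grouped and 3 to 5 in isolated mice, with 4 to 5 when 1 array was left out; the deposited values called 3 in isolated mice, and in grouped mice 3 higher and 1 lower in place of 1 higher and 3 lower; for the change of the housing difference with age 0 passed, and 0 to 1 (Plin2) when 1 array was left out. With the replicate block Xdh was also called with age in isolated mice (adjusted p = 0.0313), Csn1s1 was lost (0.057) and Csn1s2a gained (0.034) for housing at 20 weeks, and no other call of the 13 genes changed; same-numbered arrays did not deviate together throughout. With all 16 arrays in 1 fit Csn1s1 was lost (0.122) and Csn1s2a gained (0.0376). The causes below were not tested. At 15 weeks the housing difference changed sign under quantile normalization for Xdh (0.0438) and Mfge8 (0.0235), and under cyclic loess for Xdh (0.0426) and Mfge8 (0.0297). It did so with the Gapdh covariate for Wap (0.63), Btn1a1 (-0.0067), Csn1s1 (0.14), Csn1s2a (0.56) and Csn2 (0.58). That covariate nearly separates the housing groups at 15 weeks. The housing difference also changed sign with the luminal covariate for Lcn2 (-0.0468), and with the adipocyte covariate for Xdh (0.0075) and Lcn2 (-0.0041). At 20 weeks it did so for Lcn2 under quantile normalization (0.0392), loess (0.0047) and the Gapdh covariate (0.0292), and for Xdh with the last (-0.0358). The luminal covariate turned Ltf (0.34), Mfge8 (0.0862), Plin2 (0.0112), Lcn2 (0.25), Csn1s2b (-0.0298) and Csn3 (0.15), and the adipocyte covariate turned Btn1a1 (0.0152), Ltf (1.01), Mfge8 (0.12), Plin2 (0.56), Lcn2 (0.37), Csn1s2b (-0.0889) and Csn3 (0.56). The adipocyte covariate nearly separates the housing groups at 20 weeks, and nothing is drawn from these values of it. A dimmer Btn1a1 probe set, read after the data were seen, gave 0.0021; both dimmer ones lie below every array's lower quartile, and nothing is drawn from them. For age, the deposited values turned Btn1a1 in grouped (0.12) and Wap in isolated mice (0.11), and the all-gene medians were 0.23 and 0.24 on them, against -0.00 and 0.01; in isolated mice quantile normalization turned Ltf (-0.0452) and loess Ltf (-0.0961) and Mfge8 (-0.0764). The change of the housing difference turned for Xdh (-0.0238 by quantile, -0.0433 by loess). Leaving out 1 array gave ranges across 0 for housing at 15 weeks in Wap (-0.33 to 0.25), Xdh (-0.0573 to 0.0277), Ltf (-0.0085 to 0.13) and Lcn2 (-0.11 to 0.25). At 20 weeks these were Xdh (-0.12 to 0.26), Ltf (-0.36 to 0.31), Mfge8 (-0.18 to 0.0255), Plin2 (-0.47 to 0.0286), Lcn2 (-0.13 to 0.20) and Csn1s2b (-0.0271 to 0.16). For age they were Wap (-0.067 to 0.52) and Mfge8 (-0.0016 to 0.0942) in grouped, and Ltf (-0.28 to 0.40) and Mfge8 (-0.072 to 0.15) in isolated mice. For the change with age they were Xdh (-0.10 to 0.28), Ltf (-0.44 to 0.23), Mfge8 (-0.12 to 0.0874) and Lcn2 (-0.25 to 0.15). Over all genes, calls for housing at 15 weeks went from 8 to between 2 and 72 (0 to 31 with 1 array left out), at 20 weeks from 2 to between 0 and 8 (0 to 136), for age in grouped mice from 6777 to between 3829 and 11362, in isolated mice from 9140 to between 5821 and 12119, and for the change with age from 2 to between 1 and 8 (0 to 139). Wap and Csn1s2b lay below the filter on dim genes and have no value there. Signal limits Wap most of the 8, at percentiles 31.1 to 66.0 of all probe sets.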
